A study of Bos taurus with 15 samples.

Results

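The libraries with the highest and the lowest level of the progesterone receptor gene PGR were set against each other, whatever the fertility of the animal. All 15 libraries of the series were ranked by the count share of the PGR entry, its reads scaled to the library total (CPM), and the 5 highest and the 5 lowest were taken, so 10 of 15 libraries are compared and 5 lie between them. They are called PGR-high, PGR-low and middle libraries here. Each library is an endometrial biopsy of 1 heifer (Bos taurus) on day 14 of pregnancy, and the labels give 5 heifers in each of 3 classes, Infertile, Sub-fertile and High-fertile. All heifers had the same hormone schedule of prostaglandin F, gonadotropin-releasing hormone, an intravaginal progesterone insert and estradiol, and all received an in vivo-produced embryo on day 7. The uterus was flushed first, and the tissue was then cut with biopsy forceps from the outer curve of the horn beside the corpus luteum. The basis of the classes and the yield of the flush, like any strain or age, were not given in the sources used here. A forceps biopsy mixes epithelium, stroma, vessels and sometimes muscle, so fewer cells of a type and less RNA per cell cannot be told apart.

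Progesterone, made by the corpus luteum, acts in the uterus through the progesterone receptor, a nuclear receptor that binds DNA when progesterone is bound. In ruminants the receptor is lost from the luminal and upper glandular epithelium during the luteal phase and is kept in the stroma, and this loss comes before the epithelium secretes the proteins and nutrients on which the conceptus elongates. Estrogen acting through its receptor, the product of ESR1, raises PGR in the uterus, and progesterone in turn lowers both receptors.

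In order of falling PGR, the PGR-high libraries were Infertile 2, High-fertile 4, Sub-fertile 3, Infertile 1 and Infertile 4, and the PGR-low libraries were Sub-fertile 2, Sub-fertile 1, Infertile 3, Sub-fertile 5 and Infertile 5. The replicate numbers only name the animals, and per-library values below follow these orders. PGR stood at 52.1, 14.9, 14.5, 11.9 and 10.3 CPM of the library total in the PGR-high libraries, against 3.40, 3.21, 2.56, 2.47 and 1.85 CPM in the PGR-low libraries. Infertile 2 had more than 3 times the level of the next library, and below it the values fell in smaller steps down to Sub-fertile 4. The upper limit divides neighbours: Infertile 4, the last library inside it, had 10.3 CPM, and High-fertile 3, the first outside, had 10.04 CPM. The lower limit falls in a gap, with 3.40 CPM in Sub-fertile 2 inside it and 6.52 CPM in Sub-fertile 4 outside. The PGR-high libraries hold 3 Infertile, 1 Sub-fertile and 1 High-fertile heifer, the middle ones 1 Sub-fertile and 4 High-fertile, and the PGR-low ones 2 Infertile and 3 Sub-fertile.

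**Figure D1:**
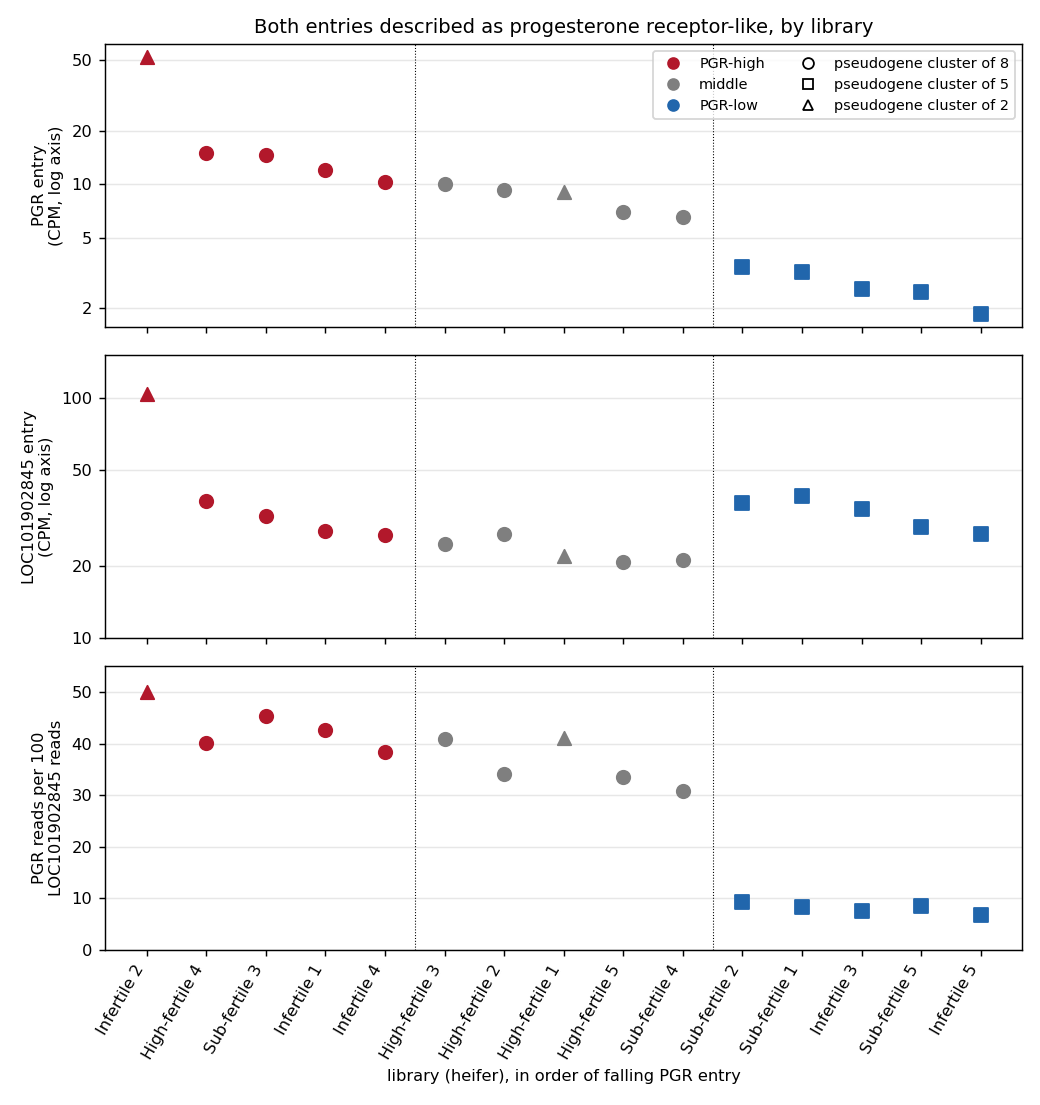
Level of the PGR entry (top, CPM of the library total, log axis), of the neighbouring entry LOC101902845 (middle, CPM of the library total, log axis) and PGR reads per 100 LOC101902845 reads (bottom) in each of the 15 libraries, in order of falling PGR. Colours give the PGR-high, middle and PGR-low libraries and shapes the clusters of 8, 5 and 2 libraries by pseudogene and ribosomal RNA counts; the 5 PGR-low libraries are low in the top and bottom panels and not in the middle one.

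The deposited table holds a second entry described as progesterone receptor-like, LOC101902845, in the row next to PGR. It has no match in the annotation used for names, and the files do not say whether both entries are parts of 1 gene. On library totals rescaled by trimmed-mean (TMM) factors, the scale of all levels from here on, LOC101902845 stood at 103, 37.7, 31.0, 29.9 and 26.3 CPM in the PGR-high libraries, against 35.8, 38.9, 33.3, 29.2 and 27.9 CPM in the PGR-low libraries. The sets overlapped, and the PGR-low libraries were above all 5 middle ones, which had 20.7 to 27.2 CPM. The log2 fold change, PGR-high over PGR-low, was 0.46 with a standard error of 0.31 for LOC101902845, and -0.11 ± 0.13 without Infertile 2. There were 38.3 to 50.1 PGR reads per 100 LOC101902845 reads in the PGR-high libraries, 30.8 to 41.0 in the middle ones and 6.78 to 9.32 in the PGR-low ones. Over the 10 libraries outside the PGR-low set the entries moved together (Pearson's r 0.984, Spearman's rho 0.939, n = 10), and without Infertile 2 and High-fertile 4, r was 0.918 and rho 0.881 (n = 8). The plot of both entries by library shows the 5 PGR-low libraries apart in their ratio. Both entries added up to 66.2 ± 49.6 CPM in the PGR-high libraries and 35.7 ± 5.09 CPM in the PGR-low libraries (SD, n = 5 each), a log2 difference of 0.67, or 0.31 without Infertile 2. Lower receptor RNA in the PGR-low libraries is thus a measurement of the PGR entry and not of LOC101902845, and the sets are named by the PGR entry alone.

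The same 5 libraries stood apart in another measure. When the libraries were clustered by the levels of 372 entries described as pseudogenes or ribosomal RNA, they fell into clusters of 8, 5 and 2, and the cluster of 5 was the PGR-low set exactly. The cluster of 2 was Infertile 2 and High-fertile 1. LOC100295881, described as a ribosomal protein S27-like pseudogene and picked here after its values were seen, had 1.53, 0.776, 0.933, 0.502 and 0.856 CPM in the PGR-high libraries, against 45.8, 53.7, 42.3, 45.3 and 45.9 CPM in the PGR-low libraries. The middle libraries had 0.442 to 1.11 CPM, so this entry splits PGR-low from all others without overlap. The labels name no batch. PGR rank and this cluster cannot be told apart between the PGR-high and PGR-low libraries, for PGR and for every gene below. Total counts ran from 38017136 to 62858724 per library. Infertile 2 held the extreme value of the 15 libraries for 31.6% of genes, Infertile 5 for 29.3%, Sub-fertile 1 for 20.6% and the others for 5.14 to 17.6%.

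A gene is called here where the fitted fold change was at least 2 and no PGR-high library overlapped a PGR-low one. Since the libraries were sorted on a measured level, and PGR and all genes come from the same libraries, these calls are a description and carry no p-value. Of 19962 genes tested, 710 were higher (3.56%) and 169 were lower (0.847%) in the PGR-high libraries. Without regard to size, 2524 genes (12.6%) were higher and 1826 (9.15%) lower without overlap. The middle libraries went with the PGR-high ones: their mean was nearer to PGR-high than to PGR-low for 682 of the 710 genes and 156 of the 169, and for 76.7% of all genes tested. The 5 middle libraries over the PGR-low ones gave 973 higher (4.87%) and 252 lower (1.26%) genes, against 25 higher (0.125%) and 7 lower (0.0351%) for PGR-high over middle. The lower genes were of another kind than the higher ones. Of the 169, 148 (87.6%) carry only a LOC number, 65 (38.5%) are described as pseudogene or ribosomal RNA and 42 (24.9%) as ribosomal protein, with a median gene model of 842 bases. Of the 710, 86 (12.1%) carry a LOC number and 1 (0.141%) is a pseudogene or ribosomal RNA, with a median model of 2178 bases, and over all genes tested these were 23.1%, 1.86% and 2505 bases.

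**Figure D2:**
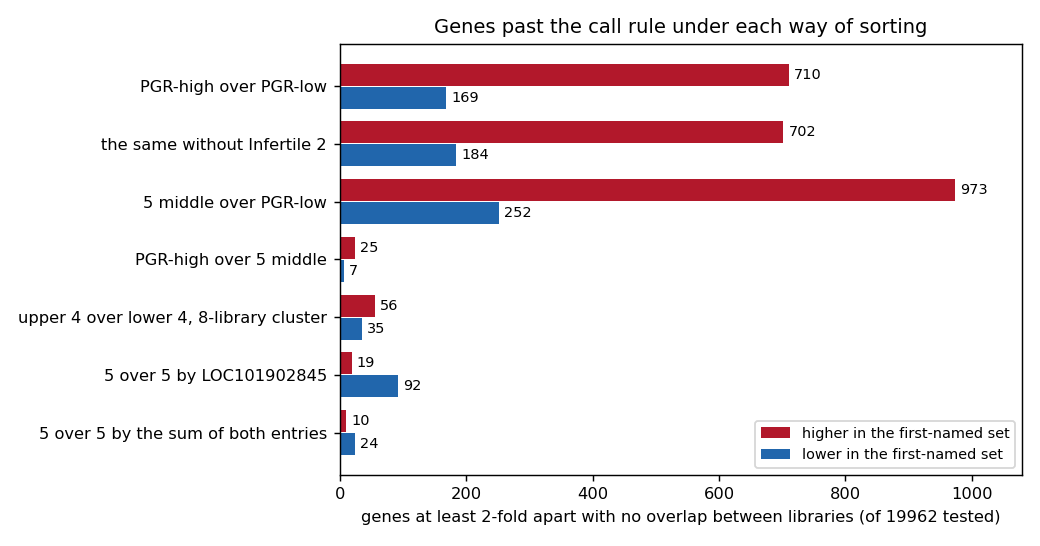
Number of genes at least 2-fold apart without overlap (horizontal axis, of 19962 tested) under each way of sorting the libraries, with genes higher in the first-named set in red and lower ones in blue. Both comparisons with the PGR-low libraries on one side and PGR-high or middle libraries on the other give 702 or more higher genes, and comparisons within the other 10 libraries give 56 or fewer.

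The named higher genes with the largest folds had their highest level in Infertile 2 for 13 of 15. VILL, a relative of the actin-bundling protein villin, had 72.0, 2.61, 4.32, 1.19 and 1.75 CPM in the PGR-high libraries, against 1.18, 0.731, 1.18, 0.319 and 0.460 CPM in the PGR-low libraries. Its log2 fold change was 4.40 ± 1.10, and the sets only just failed to overlap. MUC5AC, a gel-forming mucin, had 9.70 CPM in Infertile 2 and 0.670 to 1.01 CPM in the other PGR-high libraries, against 0 to 0.340 CPM in the PGR-low libraries. MSLN, the surface protein mesothelin, had 63.7 CPM in Infertile 2 and 3.94 to 5.41 CPM in the other PGR-high libraries, against 0.387 to 3.45 CPM in the PGR-low libraries. These genes are carried in size by 1 library.

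EMID1, a secreted protein with an EMI and a collagen domain, had 193, 44.3, 25.7, 24.7 and 19.1 CPM in the PGR-high libraries, against 6.81, 3.84, 5.64, 7.51 and 5.57 CPM in the PGR-low libraries, a log2 fold change of 3.39 ± 0.58. All PGR-high libraries lay well above all PGR-low ones, and the middle libraries had 15.8 to 23.8 CPM. LRRC15, a membrane protein of matrix-making fibroblasts, and COMP, a matrix protein, had 11.7 and 9.40 CPM in Infertile 2 and at most 1.14 and 1.11 CPM in the other PGR-high libraries, against at most 0.383 and 0.362 CPM in the PGR-low libraries. The collagen entry COL27A1-2 had 43.4, 11.3, 7.14, 8.98 and 9.98 CPM in the PGR-high libraries, against 2.87, 3.50, 1.61, 2.32 and 0.740 CPM in the PGR-low libraries. PRSS22, a serine protease, had 0.754 to 13.5 CPM in the PGR-high libraries, against 0.319 to 0.522 CPM in the PGR-low libraries.

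BBC3 and LGR6 were spread more evenly over the PGR-high libraries than these. BBC3, which encodes the cell-death protein PUMA, had 7.04, 4.97, 3.18, 4.84 and 2.65 CPM in the PGR-high libraries, against 0.509, 0.679, 0.702, 1.25 and 0.638 CPM in the PGR-low libraries, a log2 fold change of 2.58 ± 0.30. The middle libraries had 3.37 to 4.45 CPM of BBC3, within the range of the PGR-high ones. LGR6, a receptor for R-spondins, had 2.04, 12.7, 8.94, 4.84 and 3.35 CPM in the PGR-high libraries, against 1.34, 0.705, 1.40, 1.14 and 0.766 CPM in the PGR-low libraries, and Infertile 2 was the lowest of the PGR-high ones. AMN, which in humans serves vitamin B12 uptake as a membrane protein, had 13.3 CPM in High-fertile 4 and 0.954 to 5.97 CPM in the other PGR-high libraries, against 0 to 0.929 CPM in the PGR-low libraries. The log2 fold change of AMN was 3.55 ± 0.95, and 2.69 without High-fertile 4. B3GNT8, a glycosyltransferase, CALML6, a calmodulin relative, and AQP5, a water channel, had 2.84 to 14.0, 0.691 to 8.93 and 1.93 to 5.83 CPM in the PGR-high libraries, against 0.793 to 1.39, 0.273 to 0.498 and 0.131 to 0.903 CPM in the PGR-low libraries. In the heat map the middle columns resemble the PGR-high ones other than Infertile 2 in rows such as BBC3 and COL27A1-2. For others, such as LRRC15 and COMP, some middle libraries are within the PGR-low range.

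**Figure D3:**
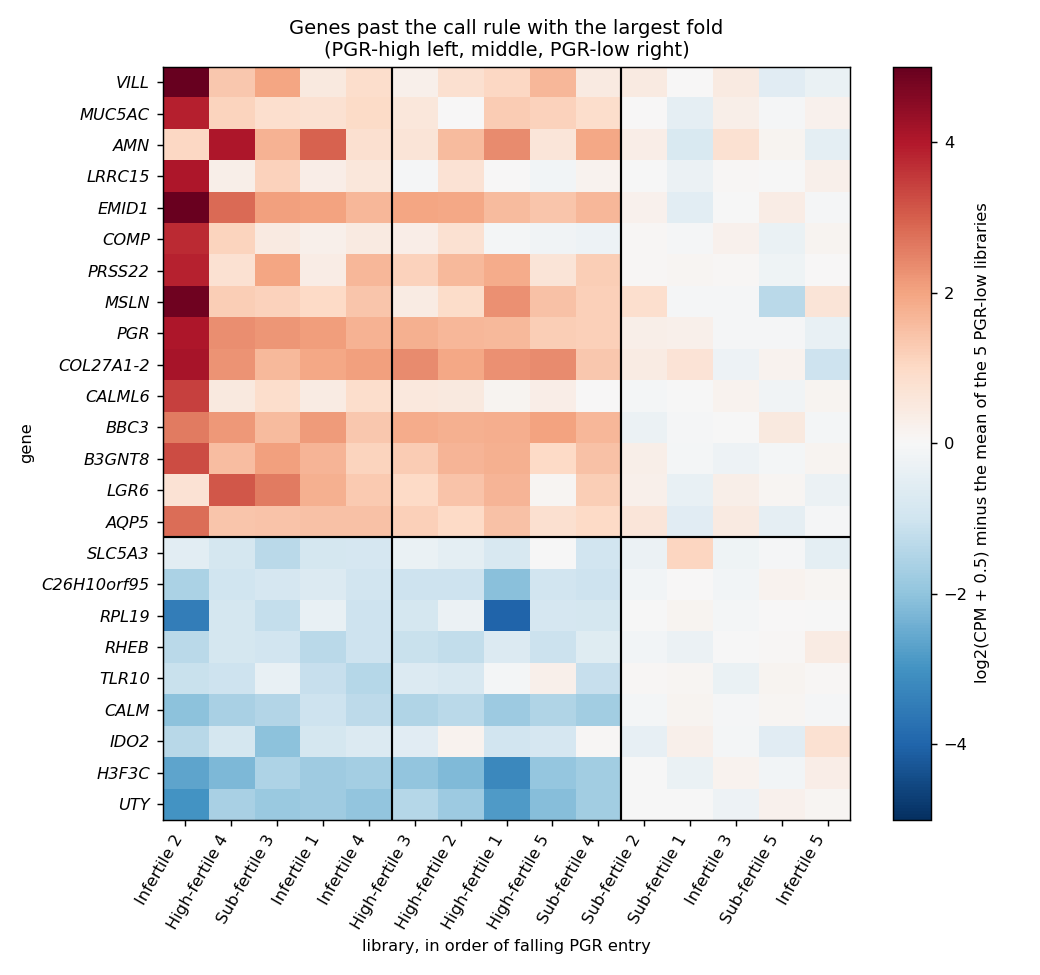
Heat map of the named genes past the call rule with the largest fold, 15 higher and 9 lower in the PGR-high libraries (rows), in the 15 libraries in order of falling PGR (columns). Colour is log2(CPM + 0.5) minus the mean of the 5 PGR-low libraries, from -5 (blue) to 5 (red). Infertile 2, the leftmost column, is the highest PGR-high library in 13 of the 15 upper rows. The middle libraries are like the PGR-high ones in rows such as BBC3, COL27A1-2, H3F3C and CALM. In other rows, among them LRRC15, COMP, IDO2 and TLR10, some middle libraries are within the PGR-low range.

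Only 9 lower genes had a symbol and a mean of at least 1 CPM over the 10 libraries. They were UTY, H3F3C, IDO2, CALM, TLR10, RHEB, RPL19, C26H10orf95 and SLC5A3, with log2 fold changes of -2.57 to -1.004. CALM, described as calmodulin-like, had 18.1, 24.6, 27.1, 37.4 and 30.7 CPM in the PGR-high libraries, against 70.6, 83.2, 72.8, 82.4 and 73.7 CPM in the PGR-low libraries. RHEB, the GTPase that activates mTORC1, had 23.9, 33.2, 31.5, 24.3 and 29.8 CPM in the PGR-high libraries, against 56.2, 50.0, 60.5, 65.1 and 82.2 CPM in the PGR-low libraries. UTY, described in the table as lysine-specific demethylase 6A, H3F3C, described as histone H3-like, CALM and RPL19, a ribosomal protein, belong to gene families with near-identical copies, and their counts could have been split between copies. SLC5A3, the transporter of myo-inositol, had 49.1 to 87.8 CPM in the PGR-high libraries, against 90.7 to 266 CPM in the PGR-low libraries. IDO2, a tryptophan-degrading enzyme, and TLR10, an innate immune receptor, stood at 0.318 to 1.63 and 0.662 to 1.91 CPM in the PGR-high libraries, against 1.82 to 5.29 and 1.97 to 2.91 CPM in the PGR-low libraries.

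Among the steroid receptors, ESR1, the estrogen receptor alpha gene, was called with PGR. The ESR1 entry has a gene model of only 543 bases and PGR 1459, beside a median of 2505 over all genes tested. Like PGR, ESR1 is thus a measurement of its entry, and whether the rest of the gene follows was not tested. ESR1 had 25.8, 22.9, 24.3, 22.3 and 16.9 CPM in the PGR-high libraries, against 8.01, 7.88, 7.54, 7.15 and 4.90 CPM in the PGR-low libraries. No library overlapped, the log2 fold change was 1.66 ± 0.19, and the middle libraries reached from 13.1 to 21.6 CPM. PGR itself had a log2 fold change of 2.95 ± 0.41. PGRMC2, described as progesterone receptor membrane component 2, had 82.0, 99.6, 91.3, 86.2 and 88.2 CPM in the PGR-high libraries, against 109, 127, 107, 124 and 143 CPM in the PGR-low libraries. The sets did not overlap for PGRMC2, but its log2 fold change of -0.45 ± 0.08 was under the 2-fold limit. The estrogen receptor beta gene ESR2 (-0.26 ± 0.35), the glucocorticoid receptor gene NR3C1 (-0.17 ± 0.24), the mineralocorticoid receptor gene NR3C2 (-0.22 ± 0.20) and PGRMC1 (-0.23 ± 0.11) overlapped between the sets, all given as log2 fold changes.

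Some co-regulators and partner factors of the receptor were apart between the sets by less than the 2-fold limit. SOX17, a factor of uterine epithelium, had 85.7 to 156 CPM in the PGR-high libraries, against 39.4 to 73.2 CPM in the PGR-low libraries. GATA2, which in mouse uterus acts with the receptor, had 130, 159, 199, 198 and 206 CPM in the PGR-high libraries, against 98.5, 84.0, 108, 92.7 and 108 CPM in the PGR-low libraries. SOX17 and GATA2 did not overlap and lay just under 2-fold, with log2 fold changes of 0.98 ± 0.20 and 0.86 ± 0.12. PTGES3, the p23 co-chaperone of steroid receptors, and NCOA1, a coactivator, were lower without overlap by smaller amounts, -0.50 ± 0.11 and -0.33 ± 0.09 on the log2 scale.

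None of 25 tested progesterone target genes was called. As 4.4% of all genes were called, the lack of a call in a list of this size tells little. Their median log2 fold change was 0.06, beside 0.05 over all genes. IHH, the hedgehog ligand that in mouse carries the progesterone signal from epithelium to stroma, had 65.3, 180, 121, 142 and 56.2 CPM in the PGR-high libraries, against 60.5, 11.5, 44.7, 60.5 and 38.6 CPM in the PGR-low libraries. IHH overlapped only through Infertile 4, with a log2 fold change of 1.39 ± 0.48. GPX3, a secreted glutathione peroxidase, had 3.52 to 25.9 CPM in the PGR-high libraries, against 2.35 to 5.39 CPM in the PGR-low libraries. FKBP5, a co-chaperone of steroid receptors that progesterone and glucocorticoids induce, had 46.7, 251, 269, 323 and 234 CPM in the PGR-high libraries, against 227, 240, 366, 383 and 297 CPM in the PGR-low libraries. HAND2, the stromal factor downstream of the receptor in mouse, had 32.4 to 51.2 CPM in the PGR-high libraries, against 26.3 to 55.2 CPM in the PGR-low libraries, and FOXA2, the gland factor, had 25.1 to 45.7 CPM in the PGR-high libraries, against 15.3 to 38.7 CPM in the PGR-low libraries.

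Lists of conceptus elongation and luteolysis genes had no call, which tells little where 4.4% of all genes were called. None of 32 elongation genes was called (median log2 fold change 0.12), and GRP, a gastrin-releasing peptide secreted by uterine glands, had 1252 to 4663 CPM in the PGR-high libraries, against 682 to 1678 CPM in the PGR-low libraries. MEP1B, a secreted metalloprotease, had 9.55 to 156 CPM in the PGR-high libraries, against 124 to 415 CPM in the PGR-low libraries. None of 20 prostaglandin and luteolysis genes was called (median 0.29). OXTR, the oxytocin receptor that drives the luteolytic pulses of prostaglandin, had 176, 5.07, 7.82, 68.3 and 3.44 CPM in the PGR-high libraries, against 21.0, 3.26, 19.5, 3.12 and 1.43 CPM in the PGR-low libraries. OXTR was high in Infertile 2 and Infertile 1 and overlapped otherwise, with a log2 fold change of 2.43 ± 1.11. None of 36 interferon genes was called, with a median of -0.08.

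Estrogen-responsive genes had 1 call of 13. TFF3, a mucosal trefoil peptide, had 50.5, 11.8, 12.8, 9.61 and 14.9 CPM in the PGR-high libraries, against 4.47, 1.64, 7.38, 2.28 and 6.77 CPM in the PGR-low libraries, a log2 fold change of 2.14 ± 0.50. LTF, the secreted iron-binding protein lactoferrin, had 29.4 to 528 CPM in the PGR-high libraries, against 3.99 to 77.5 CPM in the PGR-low libraries. GREB1, a cofactor of the estrogen receptor, had 216, 63.7, 21.4, 41.7 and 16.4 CPM in the PGR-high libraries, against 32.7, 8.98, 18.2, 30.1 and 19.97 CPM in the PGR-low libraries, and overlapped. Among 22 uterine transcription factors MSX1 was called, with 278 to 407 CPM in the PGR-high libraries, against 99.0 to 203 CPM in the PGR-low libraries. Of all 390 tested genes on the 23 lists, 12 were called (3.08%), 11 of them higher, against 4.4% of all genes. None of 14 insulin-like growth factor genes, none of 29 WNT genes and 1 of 23 immediate-early genes (JUNB, 40.4 to 72.7 CPM in the PGR-high libraries, against 19.4 to 30.9 CPM in the PGR-low libraries) was called, with medians of 0.26, 0.14 and 0.59.

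Markers of cell types differed in how they lined up with the sets, and their part in the results above was not tested. With 4.4% of all genes called, 0 or 1 call in a list, here and below, tells little about a cell type. Of 10 gland genes, SPDEF, a factor of secretory epithelium, was called, with 89.3, 159, 116, 97.1 and 39.9 CPM in the PGR-high libraries, against 24.6, 10.6, 31.4, 15.4 and 17.5 CPM in the PGR-low libraries. The 10 gland genes summed to 364 to 986 CPM in the PGR-high libraries, against 177 to 411 CPM in the PGR-low libraries, with a median log2 fold change of 0.85. Of 16 epithelial markers, ELF3 was called, and their sum was 1546 to 2483 CPM in the PGR-high libraries, against 951 to 2499 CPM in the PGR-low libraries. The 16 stromal markers had no call, a sum of 14095 to 43416 CPM in the PGR-high libraries, against 11052 to 31855 CPM in the PGR-low libraries, and a median of 0.38.

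Smooth muscle had the highest list median, 1.24, and no call among 15 genes. MYH11, the smooth muscle myosin heavy chain, had 602, 527, 240, 6354 and 105 CPM in the PGR-high libraries, against 1608, 89.9, 911, 575 and 131 CPM in the PGR-low libraries. The summed muscle level ran from 787 to 27401 CPM in the PGR-high libraries, against 712 to 6493 CPM in the PGR-low libraries, and without Infertile 1 the median turned to -0.68. Of 15 endothelial markers, EGFL7, a secreted vessel factor, was called with 19.1 to 51.8 CPM in the PGR-high libraries, against 7.96 to 10.9 CPM in the PGR-low libraries, while PECAM1 had 67.9 to 108 CPM in the PGR-high libraries, against 70.8 to 108 CPM in the PGR-low libraries. The endothelial sum was 1082 to 1491 CPM in the PGR-high libraries, against 994 to 1444 CPM in the PGR-low libraries. Ciliated-cell genes had no call of 19 and a median of -0.34, with sums of 255 to 1176 CPM in the PGR-high libraries, against 301 to 1238 CPM in the PGR-low libraries. Leukocyte lists had 1 call of 15 for macrophages (C1QC, a complement subunit, with 11.8 to 33.5 CPM in the PGR-high libraries, against 6.37 to 9.97 CPM in the PGR-low libraries), 1 of 14 for B and plasma cells (CD79A, a B-cell receptor subunit, with 0.341 to 0.716 CPM in the PGR-high libraries, against 0.137 to 0.232 CPM in the PGR-low libraries) and none of 16 for T and NK cells.

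Conceptus and blood genes were low in all libraries. Red-cell genes summed to 1.06 to 5.19 CPM in the PGR-high libraries, against 3.13 to 9.06 CPM in the PGR-low libraries, with no call of 4 tested. Of 7 tested trophoblast genes, CDX2 was called lower, with 0 CPM in 4 PGR-high libraries and 0.091 CPM in Sub-fertile 3, against 0.227 to 0.613 CPM in the PGR-low libraries. A level of 3 counts is 0.0477 to 0.0789 CPM by library, so CDX2 was at about that level or under it in the PGR-high libraries and above it in the PGR-low ones. The 7 trophoblast genes summed to 12.2 to 31.3 CPM in the PGR-high libraries, against 15.3 to 23.0 CPM in the PGR-low libraries. The plot of list medians places these lists beside one another.

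**Figure D4:**
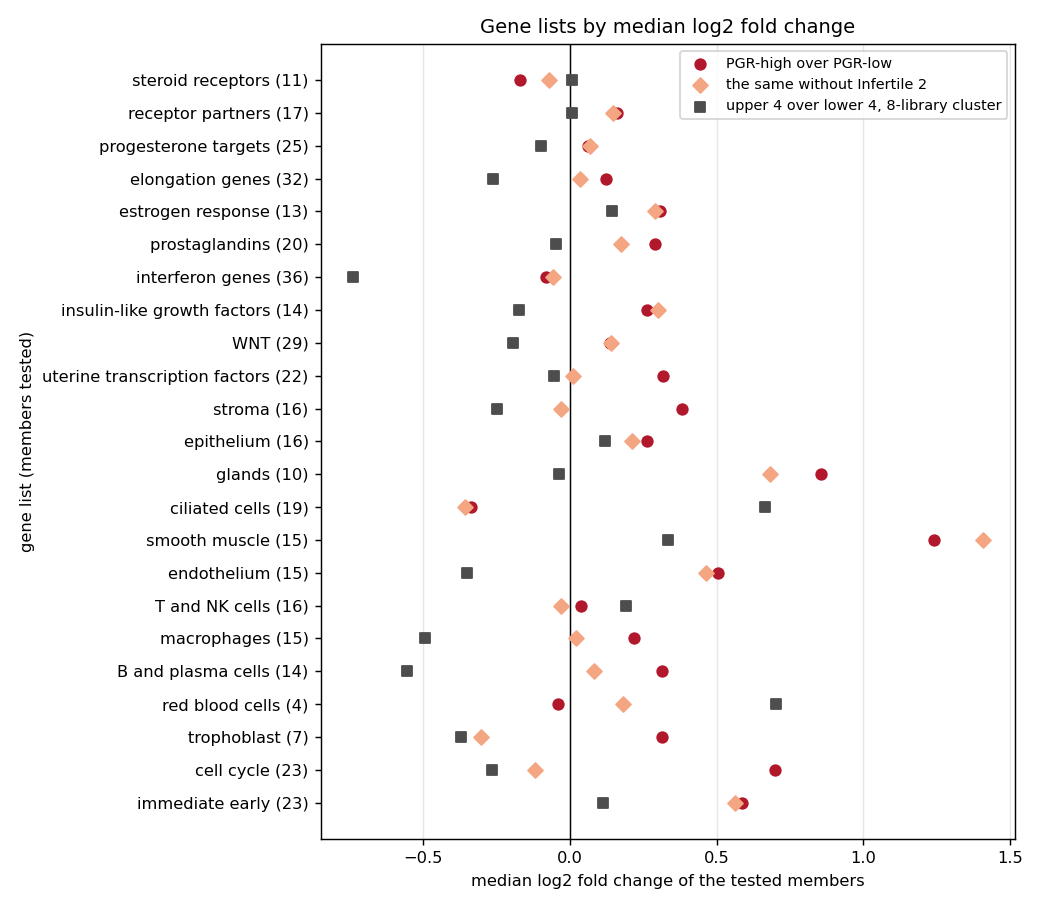
Median log2 fold change of the tested members of each of the 23 gene lists (number of members in brackets) for PGR-high over PGR-low (circles), the same without Infertile 2 (diamonds) and the upper 4 over the lower 4 libraries of the 8-library cluster (squares). The cell-cycle list goes to -0.12 without Infertile 2, against 0.70 with it, and the interferon list has its lowest value, -0.74, within the 8-library cluster.

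Most calls were kept without Infertile 2, while most of the largest folds leaned on it. Without it, 702 genes (3.52%) were higher and 184 (0.922%) lower in the 4 remaining PGR-high libraries, and 564 and 144 of these were among the 710 and 169. That is 79.4% of the 710 and 80.3% of the 702, and 85.2% of the 169 and 78.3% of the 184. Leaving a library out cannot make separated sets overlap, other than through refitted TMM factors. These shares, and the fact that no called gene changed sign, were thus largely fixed in advance. The median log2 fold change of the 710 genes was 1.27, and 1.18 without Infertile 2, and that of the 169 was -1.84, and -1.68 without it. Infertile 2 was the farthest from the PGR-low side of the 5 PGR-high libraries for 270 of the 710 (38%) and 120 of the 169 (71%). The same share over all genes was not taken, so how far these shares exceed it is not known. By the stricter measure of all 15 libraries, Infertile 2 was highest for 15.5% and lowest for 16% of all genes tested. A log2 fold change moved by more than a 1.5-fold step for 31 of the 710 genes and 3 of the 169. It did so for 10 of the 15 named higher genes, of which 13 were still called, and for none of the 9 named lower ones, of which 7 were still called.

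The named genes with the largest folds leaned on it most. VILL had a log2 fold change of 4.40, and 1.63 ± 0.48 without Infertile 2. Still above 2-fold, it lost its call only because the sets overlapped after rescaling. Before that they were nearly tied, at 1.194 CPM in Infertile 1 and 1.181 CPM in Sub-fertile 2. LRRC15 had 3.53, and 1.32 without Infertile 2, COMP 3.24 and 1.30, MSLN 3.03 and 1.17, MUC5AC 3.65 and 1.97, and CALML6 2.69 and 1.21, all log2 fold changes. PRSS22 had 3.19, and 2.01 without it, EMID1 3.39 and 2.24, COL27A1-2 2.87 and 2.05, TFF3 2.14 and 1.41, and PGR 2.95 and 2.25, and these kept their calls. ESR1 had 1.66 and 1.57, SPDEF 2.33 and 2.34, EGFL7 1.88 and 1.99, BBC3 2.58 and 2.33, and LGR6 2.57 and 2.76, with differences well under a 1.5-fold step. AMN lost its call with a log2 fold change of 3.77 without Infertile 2. It too had been nearly tied, at 0.954 CPM in Infertile 4 and 0.929 CPM in Infertile 3. C26H10orf95 with -0.92, RPL19 with -0.88 and C1QC with 0.90 came under 2-fold and lost their calls. Calls of genes near the limits were also lost without other single libraries: AMN in 5 further cases, VILL in 4 and C26H10orf95 in 2. ELF3 lost its call without Sub-fertile 3, Infertile 1, Sub-fertile 2, Sub-fertile 1 or Sub-fertile 5, with log2 fold changes down to 0.80, and SLC5A3 without Sub-fertile 3, Infertile 4 or Sub-fertile 1, with -0.66 without Sub-fertile 1.

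Infertile 2 stood apart in some lists and not in others, and the genes shown here outside the naming rule were picked after their values were seen. It was the extreme of 15 for none of 15 smooth muscle and none of 15 endothelial genes, and the highest of all 15 libraries for 20 of 23 cell-cycle genes. MKI67, the proliferation marker, had 46.7, 1.19, 2.37, 1.84 and 2.26 CPM in the PGR-high libraries, against 1.83, 2.61, 1.86, 1.52 and 0.919 CPM in the PGR-low libraries. Its log2 fold change of 2.63 ± 0.91 became 0.09 ± 0.34 without Infertile 2, and CDC20, a mitotic activator, went the same way with 2.77 and 0.23. TOP2A, the mitotic topoisomerase, had 56.4 CPM in Infertile 2 and 1.55 to 5.69 CPM in the 14 other libraries. Progesterone targets were the lowest of 15 there for 7 of 25 genes and the highest for 1, beside 16% lowest and 15.5% highest over all genes. IGFBP1, a secreted growth factor binding protein of the luteal endometrium, had 0.255 CPM in Infertile 2 and 5.40 to 190 CPM in the others. DKK1, a WNT inhibitor, had 0.128 CPM there and 7.55 to 46.2 CPM in the others, and SERPINA14, the uterine serpin, 0.0851 and 2.05 to 43.7 CPM.

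Of 20 prostaglandin and luteolysis genes, 6 were lowest and 2 highest in the same library, OXTR among the highest. HPGD, which breaks prostaglandins down, had 6.61 CPM in Infertile 2 and 225 to 1055 CPM in the 14 other libraries. PTGS2, the inducible cyclooxygenase, had 1.36 CPM in it and 12.2 to 128 CPM in the others. OXT, the oxytocin gene, which did not pass the filter, had 257 reads in Infertile 2 and at most 2 in any other library. No interferon gene of 36 was highest in Infertile 2 and 12 were lowest there. The plot of 6 genes by library shows Infertile 2 apart at the top for OXTR, MKI67 and GREB1 and at the bottom for FKBP5, HPGD and IGFBP1.

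**Figure D5:**
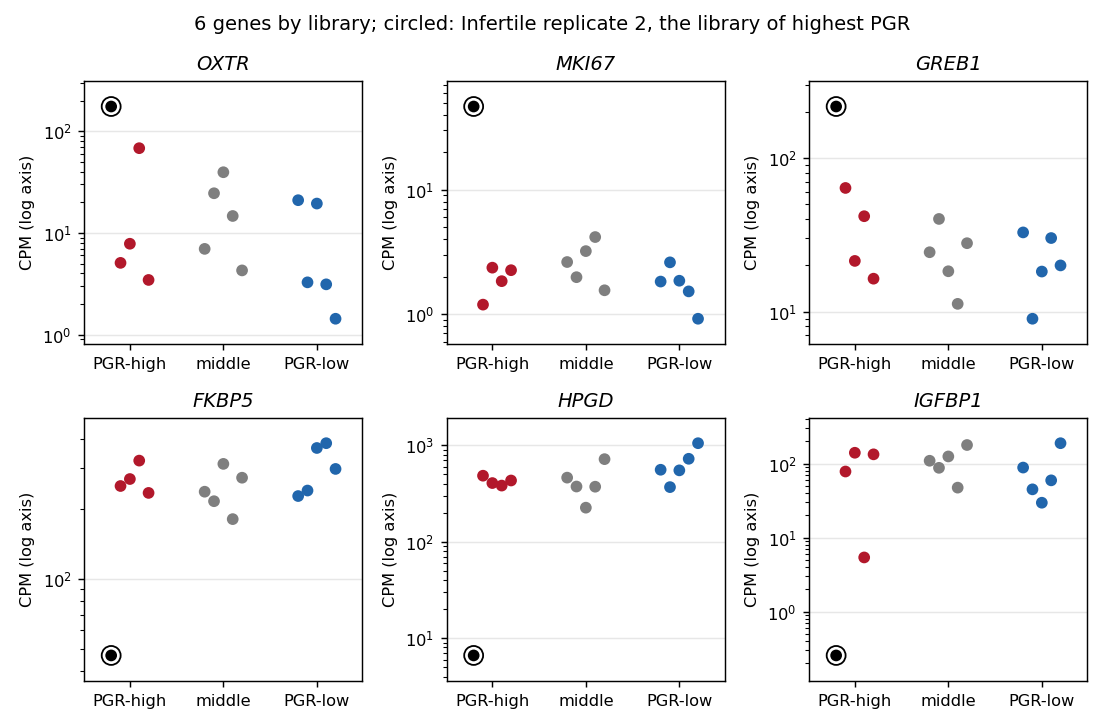
Level of 6 genes (CPM, log axes) in each PGR-high, middle and PGR-low library, 1 point per library, with Infertile 2 as the circled black point. MKI67 has 46.7 CPM in Infertile 2 and at most 4.17 CPM in any other library, and HPGD has 6.61 CPM there and at least 225 CPM elsewhere.

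Among the 8 libraries of 1 pseudogene cluster, PGR could be compared without the PGR-low set and without Infertile 2. The upper 4 were High-fertile 4, Sub-fertile 3, Infertile 1 and Infertile 4, with 15.1, 14.0, 12.8 and 10.06 CPM of PGR. The lower 4 were High-fertile 3, High-fertile 2, High-fertile 5 and Sub-fertile 4, with 10.07, 9.28, 6.91 and 6.72 CPM. The split followed PGR on library totals. On the TMM scale High-fertile 3 stood just above Infertile 4, so PGR itself overlapped between the upper and the lower 4. By TMM ranking High-fertile 3 would take the place of Infertile 4 in the PGR-high set. The range is narrow, with a log2 fold change of 0.66 for PGR. Here 56 genes were higher (0.281%) and 35 lower (0.175%), of which 3 and 5 were among the genes called between PGR-high and PGR-low. The upper 4 are also 4 of the 5 PGR-high libraries. Called genes were thus chosen partly through these same libraries, so neither this sharing nor their folds here are an independent check. ESR1 had a log2 fold change of 0.17 within the cluster, EGFL7 -0.23 and BBC3 0.01. SPDEF had 1.11, LGR6 1.52, TFF3 0.97 and AQP5 0.57, of which TFF3 and AQP5 did not overlap between the upper and the lower 4, like 416 genes (2.08%) in all that were higher in the upper 4. The lower 4 hold 3 High-fertile heifers and the upper 4 hold 1, so class and PGR rank move together here as well.

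Interferon and cilia genes each had 1 sign inside this cluster. All 36 interferon genes had a negative log2 fold change, with a median of -0.74, while 53.1% of all genes were positive. ISG15, an interferon-induced ubiquitin-like protein, had 10.2, 13.5, 10.5 and 24.8 CPM in the upper 4 and 4.13, 47.8, 65.1 and 93.2 CPM in the lower 4. High-fertile 3 broke the order with the lowest value of the 8. MX1, an interferon-induced antiviral GTPase, had 118, 177, 102 and 228 CPM in the upper 4 and 95.8, 376, 454 and 563 CPM in the lower 4. All 19 ciliated-cell genes were positive, with a median of 0.67, while ARMC3, an axonemal gene, had 7.20 to 42.8 CPM in the upper 4 and 8.52 to 19.99 CPM in the lower 4. None of 15 endothelial and none of 15 macrophage genes was positive. Of 32 elongation genes, 4 were positive here, with a median of -0.26, against 20 and a median of 0.12 for PGR-high over PGR-low. Of genes picked after their values were seen, PRSS35, a secreted protease-like protein, had 110, 74.1, 58.9 and 84.3 CPM in the upper 4 and 40.2, 22.0, 33.9 and 46.9 CPM in the lower 4, while the PGR-low libraries had 33.7 to 83.3 CPM. TINAGL1, a matrix protein, had 40.3 to 126 CPM in the upper 4 and 163 to 202 CPM in the lower 4, against 37.4 to 68.6 CPM in the PGR-low libraries.

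The libraries were also ranked by the other entry. The 5 highest over the 5 lowest libraries by LOC101902845 had 19 higher (0.0952%) and 92 lower (0.461%) genes. Here Sub-fertile 1, a PGR-low library, was on the high side and Infertile 4, a PGR-high one, on the low side. No gene could therefore be called in the same direction by both rankings, and the lack of such genes was fixed in advance. Ranking by the sum of both entries gave 10 higher (0.0501%) and 24 lower (0.12%) genes, of which 1 and 1 were called in the same direction by PGR.

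The genes most like PGR over the 15 libraries by Spearman's rho of log2 CPM were GMPPA (0.968), EMID1 (0.957), MTG2 (0.939), LHPP (0.936) and TSPYL5 (0.936). Over the 10 libraries outside the PGR-low set these were 0.939, 0.952, 0.915, 0.782 and 0.818. GMPPA, a regulator of GDP-mannose synthesis, had 56.8, 55.3, 40.8, 40.4 and 34.4 CPM in the PGR-high libraries, against 22.3, 21.7, 20.5, 18.4 and 20.6 CPM in the PGR-low libraries. The genes most opposite were PPP3CA and APPL1 (both -0.911), EPB41L4B (-0.904), TMEM159 (-0.900) and BLZF1 (-0.893). APPL1, an endosomal adaptor, had 32.6 to 51.4 CPM in the PGR-high libraries, against 57.2 to 69.5 CPM in the PGR-low libraries. The points share library depth, the cluster split and Infertile 2, and the coefficients are a description.

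Fertility class is the only grouping the labels give, and the ranking did not use it. Infertile heifers averaged 15.7 ± 20.5 CPM of PGR, Sub-fertile ones 5.95 ± 4.81 CPM and High-fertile ones 10.1 ± 3.05 CPM (SD, n = 5 each). The spread of the Infertile class holds both the highest and the lowest library of the series. In the edgeR quasi-likelihood test of any difference among the classes, the Benjamini-Hochberg adjusted p was 0.582 for PGR and 0.550 for LOC101902845. Of 19962 genes, 0 passed the adjusted threshold of 0.05 with edgeR (0%), 1681 had an unadjusted p under 0.05, and 34 passed with the likelihood ratio test of DESeq2.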

How the data were processed

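Poly(A) RNA of 15 endometrial biopsies was sequenced from stranded TruSeq libraries, per the labels' protocols. The authors deposited a raw read count and an FPKM per gene and heifer. The submitters' processing notes name FastQC, Subread, featureCounts, edgeR and the UMD3.1 build, with versions, strandedness of counting and handling of multi-mapping reads not given in the sources used here. Gene model lengths were recovered from the deposited FPKM, which had no other use. The table has 32671 entries, 4555 of them at 0 throughout and 27 with date-like names. Of the entry names, 20070 match a current symbol of the ARS-UCD2.0 RefSeq table, which was used for names only, so no coordinates are given.

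The counts were fitted with edgeR 4.0.16 under R 4.3.3 (filterByExpr by class, leaving 19962 genes, TMM factors, robust glmQLFit). The fit of the PGR sets held all 15 libraries as 3 sets, with 12 residual degrees of freedom. It gave log2 fold changes and standard errors (the fold change over the root of F), and the fit by class gave the p-values of the class test. Per-library levels are TMM-scaled CPM. Because the ranking was made on a measured level, the comparison of PGR sets is not a test; the class test alone carries p-values, over animals that the labels list as separate samples. DESeq2 1.42.0 was an alternative. Libraries were clustered by average linkage on log2 CPM of the 372 pseudogene and ribosomal RNA entries, into 3 clusters. A level of 3 counts in a library covers counting error only.

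The sets, lists and comparisons were chosen with earlier results of these data known. The named genes are the steroid receptors and 5 further genes (OXTR, GREB1, HAND2, FOXA2, FKBP5), up to 15 called genes per direction with a symbol, a mean of at least 1 CPM and the largest fold, 2 members per list with the largest fold, and 5 genes most like and 5 most unlike PGR. Of these, 2 genes are not reported here. Other genes in the text are called list members, list members given as examples, or genes chosen after their values were seen. The fold-change fit was tested on simulated counts. Alternatives changed the scaling, filter, fold, number of libraries, left-out library, ranking measure, covariates and tool.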

Additional observations from a re-analysis of the deposited data

Results flagged for a closer look

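In each set of 5 libraries, a library stands apart where its gap to the nearest other, divided by the range of the set on log2 CPM, is beyond Dixon's 95% value. Of 180 such sets for the 90 named genes, 26 met this, and Infertile 2 was the library in 16 of them. Chance alone marks about 1 in 20 sets, but that rate is no yardstick here, since most of these genes were chosen for their folds in these libraries and Infertile 2 heads the ranking by PGR. The ratio of gap to range is given for each.

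Infertile 2 was far above the other PGR-high libraries for AQP5 (0.936), MSLN (0.886), GATA3 (0.853), MUC5AC (0.849), MKI67 (0.816), CALML6 (0.807), TCF21 (0.79), CDC20 (0.773), PGR (0.751), COL27A1-2 (0.747), TFF3 (0.737) and LOC101902845 (0.734). It was far below them for FKBP5 (0.834), UTY (0.818), AHSP (0.783) and RPL19 (0.751). Infertile 1 was far above the others for LMOD1, a smooth muscle gene (0.794).

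In the PGR-low libraries, Sub-fertile 1 was far below the others for IHH (0.729), FOXA2 (0.719) and ELF3 (0.713), all genes of uterine epithelium, and far above them for SLC5A3 (0.732) and TSPYL5 (0.718). Infertile 5 was far below the others for ESR1 (0.767) and far above them for EPB41L4B (0.749). Infertile 3 was far below the others for TLR10 (0.883), and Sub-fertile 5 for PRSS22 (0.737).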

How the results depend on the processing

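The counts of 710 higher and 169 lower genes stayed within 1.5 times under other scalings, filters, DESeq2, class as a covariate, TMM ranking, the 10 libraries alone and without both libraries of the cluster of 2 (612 to 797 and 126 to 227). Leaving out 1 library at a time gave 649 to 873 higher and 182 to 248 lower genes, with 454 and 135 called each time. Separated sets stay separated when a library is left out, apart from rescaling, so these counts are no strict check. With 4 libraries a side 301 genes were lower, with 6 a side 79 were higher and 12 lower, and with 7 a side 17 and 0. A 1.5-fold limit gave 1818 and 443, and no fold limit 2524 and 1826. Within the 8-library cluster there were 56 and 35, ranking by LOC101902845 gave 19 and 92, by the sum of both entries 10 and 24, and PGR-high over middle 25 and 7; the last 3 were chosen after seeing the data, as was middle over PGR-low (973 and 252).

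Within the 8-library cluster the log2 fold change turned for C1QC (-0.61), C26H10orf95 (0.16), CALM (0.18), COL27A1-2 (-0.081), EGFL7 (-0.23), H3F3C (0.18), LOC100295881 (0.46), CDX2 (0.18) and CD79A (-0.0014); the cause was not tested. The adjusted class p of PGR was 0.417 to 0.775 without 1 library at a time. The clusters could not be entered as a covariate of the PGR sets, since the PGR-low set is 1 cluster. No paired analysis was possible because the labels tie no animals across the classes; the numbers in the text only name them. With 5 animals a set and 1 library far apart, fold sizes of genes near 1 CPM are the least secure.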
